A study of Mus musculus with 2 samples.

Results

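The Frizzled genes encode the cell-surface receptors of WNT proteins. Here they are followed in cultured mouse ureters in which WNT secretion was blocked. All genes named *Fzd1* to *Fzd10* in the design of the array were taken, without regard to their values. These were 10 of 29924 gene names, covered by 13 of 39429 probes and 52 of 157716 spots. *Fzd2*, *Fzd5* and *Fzd7* had 2 probes each and the other members 1.

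Wildtype NMRI embryos were the source of the ureters, which were explanted at E11.5 and kept for 18 h on transwell membranes. The treated group received 10 µM IWP-2 and the control group DMSO at 2:1000, and the sex of the embryos was not determined. IWP-2 is a small molecule that inhibits PORCN, the acyltransferase that attaches a lipid to WNT proteins before they are secreted. RNA of 1 treated and 1 control pool was hybridised together on each of 2 two-colour arrays with swapped dyes. The treated pool was labelled with AlexaFluor647 on replicate 1 and with AlexaFluor555 on replicate 2. Slide and scan were the same for both arrays. An explant holds mesenchyme, epithelium and other cells, so that fewer cells of a type and less RNA per cell cannot be told apart.

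Frizzled proteins cross the membrane several times and carry an extracellular cysteine-rich domain, which holds the lipid of the WNT ligand. With the co-receptors LRP5 and LRP6 they stabilise CTNNB1 inside the cell, and with ROR or planar polarity proteins they act without it. In the early ureter, WNT ligands of the epithelium signal to the surrounding mesenchyme through CTNNB1. By sequence, FZD1, FZD2 and FZD7 are close relatives, as are FZD5 and FZD8, FZD3 and FZD6, and FZD4, FZD9 and FZD10.

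The probes are 60 bases long, and their positions are those of the array files (mouse build mm9). Stretches of 30 bases are shown, 5′ to 3′, for the genes that changed and for the single pair of probes from different Frizzled genes with a long stretch in common. The *Fzd10* probe lies at chr5:129109798-129109857 and the first *Fzd7* probe at chr1:59543192-59543251. The first *Fzd2* probe lies at chr11:102467613-102467672 and the second *Fzd7* probe at chr1:59541367-59541426, all on the plus strand. Capitals mark the run of 14 bases that the last pair shares. Exon and UTR annotation of this build was not used here.
Fzd10, bases 1 to 30: ttgactctctgaattgttaaacaaatgatt
Fzd7 first probe, bases 1 to 30: aagggaaggtgaacttcaaagtgattctgg
Fzd2 first probe, bases 28 to 57: tgacgctcATCGTGGGCATCACgtcgggct
Fzd7 second probe, bases 31 to 60: tacctgatgaccatgATCGTGGGCATCACt
At its best ungapped fit, this pair had 42 of 60 bases in common. The other pairs of probes from different Frizzled genes shared runs of at most 8 bases.

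To find out which receptors the ureter expressed without the inhibitor, the control channel of both arrays was examined. All 10 genes had signal well above background there, a mark that the scanner software sets for each spot. In fact all 13 probes were well above background in all 4 channels. Of all spots on the arrays, 68.6 and 70.7% were so marked in the control channels and 69.8 and 69.9% in the treated channels. The margin was smallest for the second *Fzd5* probe, with an intensity between 2.33 and 3.45 times its local background in the 4 channels. For the first *Fzd5* probe it was between 4.28 and 7.80 times, and for *Fzd9* between 4.45 and 8.62 times. The *Fzd10* probe reached 234 and 158 times the local background in the control channels and 32.2 and 48.0 times in the treated channels. These ratios say how securely a probe was detected, and they do not rank the receptors by amount, since probes differ in binding.

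Changes are given as log2 ratios, with treated divided by control, and the SD is that between the 2 arrays. A gene with several probes is represented by its brightest one. Of the 10 Frizzled genes, 2 were lower after IWP-2 at a false discovery rate (FDR) of 0.05 and 0 were higher by limma, the only tool run. At an unadjusted p under 0.05, 4 genes passed, namely *Fzd1*, *Fzd7* and *Fzd10* with negative and *Fzd4* with a positive ratio, as did 13.4% of all 20119 genes tested. At FDR 0.05, 1.15% of all genes were lower and 0.606% higher. The log2 ratios of the family ran from -2.29 to 0.41, with a median of -0.05. The median over all genes was 0.00, where the normalisation within each array places it. 4 members were lower on both arrays, which held for 27.5% of all genes, and 4 were higher on both, which held for 28.5%.

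**Figure D1:**
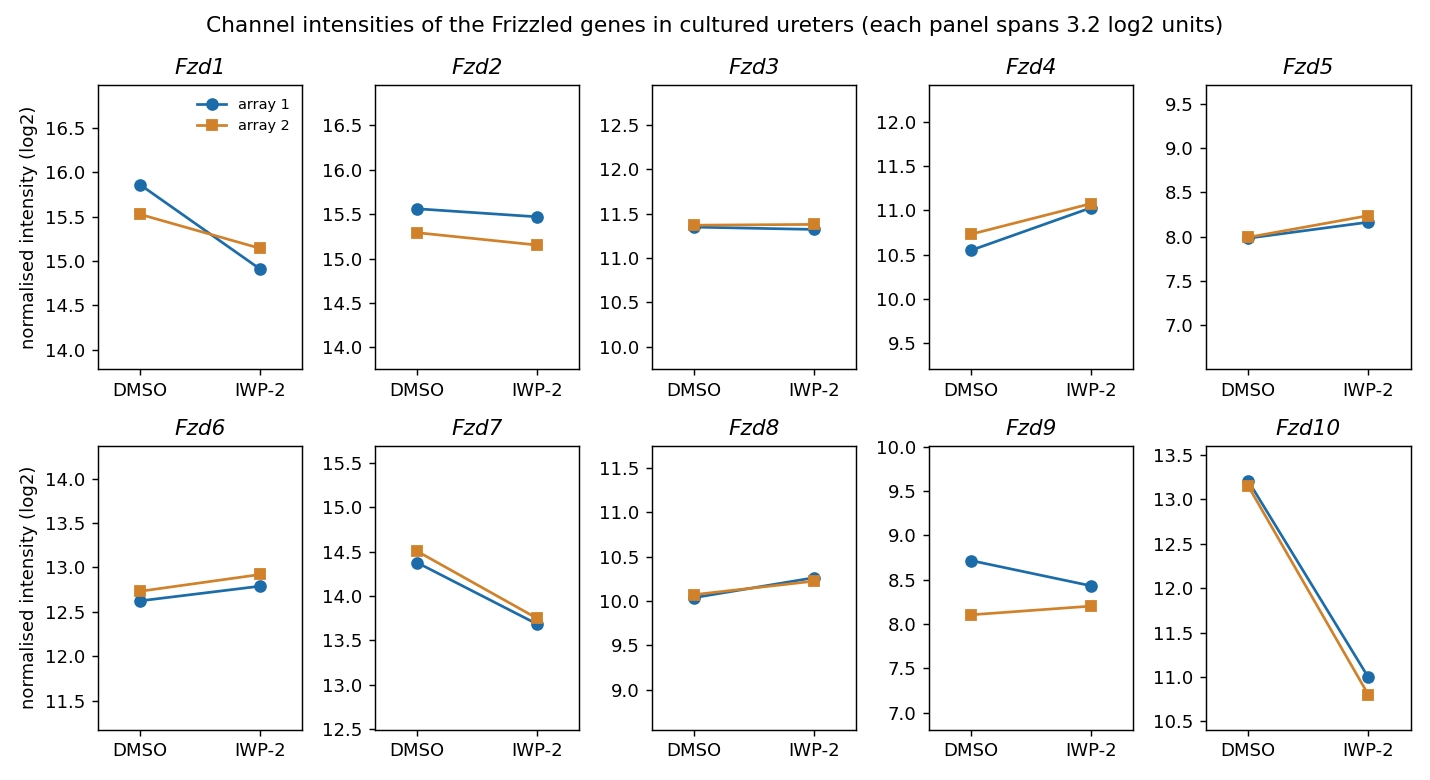
Normalised intensity (log2) of each Frizzled gene in the DMSO and IWP-2 channels of both arrays, with 1 panel per gene and a line joining the pools of 1 array. *Fzd10* falls from above 13.1 to 11.0 or less on both arrays, while the lines of *Fzd3* are nearly flat; heights are not comparable between panels.

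*Fzd10*, a receptor known for signalling through CTNNB1, had the largest change in the family, a decrease to 20.5% of its control level. Its normalised intensity (log2) was 13.21 and 13.15 in the control pools of replicates 1 and 2. In the treated pools it was 11.00 and 10.80. The treated values therefore lay far below both control values. The log2 ratio was -2.22 on replicate 1 and -2.36 on replicate 2, with a mean of -2.29 ± 0.10 (SD, n = 2; adjusted p = 0.000445, limma). The 95% interval of the level left was 17.3 to 24.3% of the control. Only 9 of the 20119 genes had a lower mean. With the intensities processed by the scanner software the decrease was of the same size (-2.35) but did not pass the test (adjusted p = 0.396), as no gene did there.

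*Fzd7*, a receptor widely used in mesenchymal and stem cells, fell less. The normalised intensity (log2) of its first probe was 14.38 and 14.51 in the control pools and 13.68 and 13.75 in the treated pools, without overlap. The log2 ratios were -0.69 and -0.76, with a mean of -0.73 ± 0.05 (SD, n = 2; adjusted p = 0.0254, limma), or 60.4% of the control level (95% interval 51.3 to 71.2%). The second probe of *Fzd7* gave -0.30 and -0.42, a decrease on both arrays that was smaller than that of the first. This is the probe that has 42 bases in common with the *Fzd2* probe printed above. Whether transcripts of *Fzd2* contributed to its signal was not tested. The call of *Fzd7* was lost under 5 of 12 other ways of processing, among them the processed intensities (adjusted p = 0.396) and median centring (adjusted p = 0.391).

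*Fzd1* and *Fzd2*, the close relatives of *Fzd7*, did not pass the test. For *Fzd1*, the normalised intensity (log2) was 15.86 and 15.53 in the control pools and 14.91 and 15.14 in the treated pools. Both control values thus exceeded both treated values, but the size of the difference was not the same on the 2 arrays. The log2 ratio was -0.95 on replicate 1 and -0.38 on replicate 2, with a mean of -0.67 ± 0.40 (SD, n = 2; adjusted p = 0.0959, limma). The mean of *Fzd1* was close to that of *Fzd7*, and the SD between the arrays was 0.40 against 0.05. For *Fzd2*, the log2 ratios of the first probe were -0.09 and -0.14 (adjusted p = 0.791), and those of the second probe -0.49 and -0.10. The normalised intensity (log2) of the first *Fzd2* probe was 15.56 and 15.29 in the control and 15.47 and 15.15 in the treated pools, so that the groups overlapped. This probe has 42 bases in common with the second *Fzd7* probe, and whether transcripts of *Fzd7* contributed to its signal was not tested.

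*Fzd4* had the highest ratio of the family. It is best known as the receptor of NDP (Norrin), a ligand outside the WNT family that directs the growth of retinal vessels. Its normalised intensity (log2) was 10.55 and 10.73 in the control pools and 11.03 and 11.08 in the treated pools. The groups did not overlap, but the same held for *Fzd1*, *Fzd5*, *Fzd6*, *Fzd7*, *Fzd8* and *Fzd10*. The share of all genes without such an overlap is not given here, so the lack of overlap does not set these members apart. The change of 0.41 ± 0.10 (SD, n = 2) did not pass the test over all genes (adjusted p = 0.126, limma). The 10 endothelial markers of a fixed list, among them *Pecam1*, *Cdh5* and *Tek*, were all well above background and all higher on both arrays, and 3 of them passed FDR 0.05 (*Kdr*, *Cldn5* and *Sox17*). Their summed normalised intensity was 125673 and 103357 in the treated pools against 92211 and 64769 in the control pools. The median log2 ratio of these markers was 0.48. It was 0.49, 0.41 and 0.36 for fixed lists of blood, macrophage and neural markers, so the rise was not particular to endothelial markers. Of all genes, 28.5% were higher on both arrays and 0.606% were higher at FDR 0.05. The part of the endothelial share in the value of *Fzd4* was not tested.

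*Fzd5*, *Fzd6* and *Fzd8* had small positive log2 ratios on both arrays, and none passed the test. The means were 0.21 ± 0.04 for the first *Fzd5* probe, 0.18 ± 0.02 for *Fzd6* and 0.19 ± 0.05 for *Fzd8* (SD, n = 2). The 95% intervals on the log2 scale were -0.02 to 0.45, -0.06 to 0.41 and -0.05 to 0.43, and each spanned 0. The second *Fzd5* probe gave -0.00 and 0.04. *Fzd6* is a receptor of planar polarity in the skin, and *Fzd5* and *Fzd8* bind WNT ligands in the eye and gut.

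*Fzd3* and *Fzd9* had opposite signs on the 2 arrays. *Fzd3*, known for axon guidance and planar polarity, was at -0.03 and 0.01, and its 95% interval of the log2 change was -0.24 to 0.23. *Fzd9* was at -0.29 and 0.10. Its normalised intensity (log2) differed more between the control pools (8.72 and 8.10) than between treated and control pools of 1 array.

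**Figure D2:**
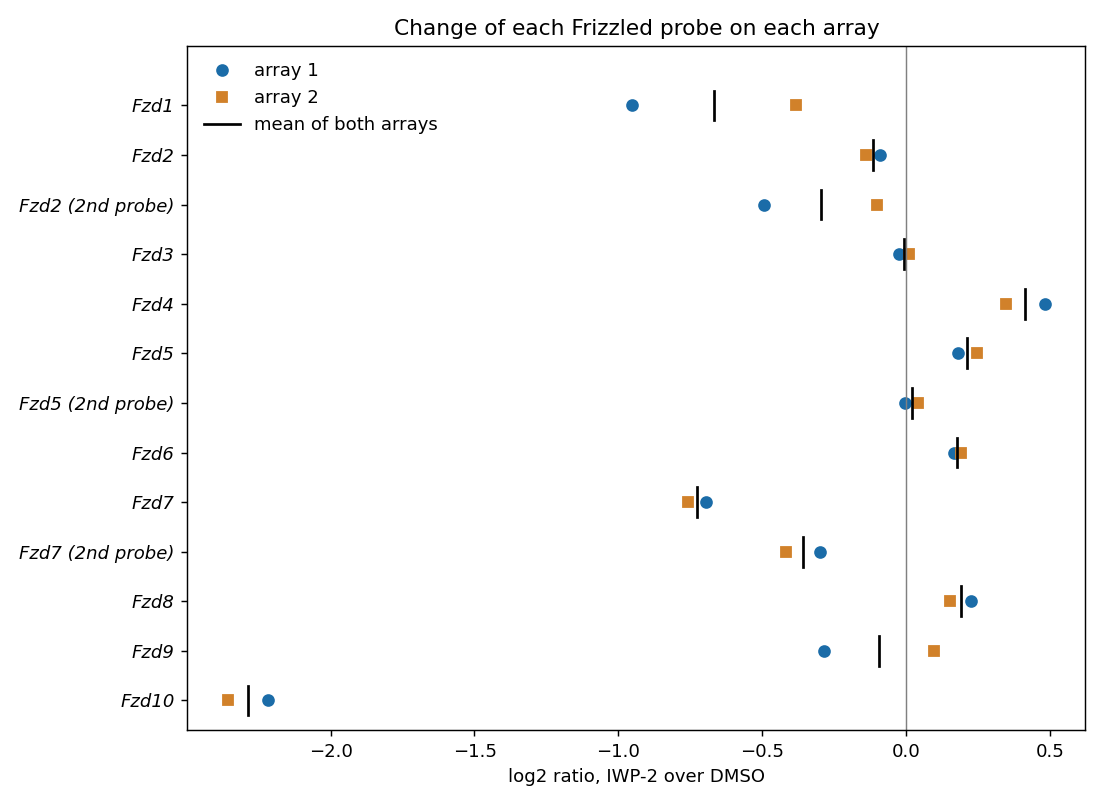
Log2 ratio of IWP-2 over DMSO for each of the 13 Frizzled probes, with a circle for array 1, a square for array 2 and a bar for their mean. *Fzd10* at -2.22 and -2.36 stands apart, and *Fzd1* (-0.95 and -0.38) and *Fzd9* (-0.29 and 0.10) show wide gaps between the arrays.

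The study's methods describe a selection by brightness and fold change, and a version of it was run without any test. A gene had to reach a processed intensity of 100 in its brighter channel and to differ by a factor of 2 or more, one way, on each array. *Fzd10* was the 1 member that passed, with treated intensities of 337 and 318 against control intensities of 1638 and 1692. Of 14550 genes bright enough on both arrays, 0.344% passed as lower. *Fzd5* and *Fzd9* did not reach the intensity. *Fzd7* missed the fold change, with ratios of 0.612 and 0.584 of treated over control.

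The 3 tested genes whose log2 ratios on the 2 arrays lay nearest to those of *Fzd10* were *Tmem132d*, *Notumos* and *Gdf10*. Their Euclidean distances over the 2 arrays were 0.419, 0.504 and 0.510 log2 units. *Tmem132d* encodes a membrane protein and had a mean log2 ratio of -2.53. *Gdf10*, a ligand of the TGFB family, was at -2.01. *Notumos*, an antisense transcript of the WNT-inactivating enzyme gene *Notum*, was at -1.93, whereas *Notum* itself was at 0.07 and -0.26.

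The Frizzled genes were set beside 8 lists of other genes of the pathway, which hold 80 genes, 69 of them tested. In these lists 10 genes were lower and 1 was higher at FDR 0.05. Among the WNT ligands, 12 of 19 could be tested and 1 was lower. This was *Wnt5a*, a ligand of FZD and ROR2 receptors, with log2 ratios of -1.28 and -1.15 (adjusted p = 0.00531, limma). *Wnt5b* had a mean of -0.49, *Wnt9b* of -0.45 and *Wnt10b* of 0.48, none past the test. *Wnt2*, *Wnt2b*, *Wnt3*, *Wnt3a*, *Wnt7a*, *Wnt8a* and *Wnt8b* were too dim.

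None of the 6 co-receptors and other WNT receptors passed the test (*Lrp5*, *Lrp6*, *Ror1*, *Ror2*, *Ryk* and *Ptk7*). The means nearest to a change were -0.25 for *Ptk7*, -0.18 for *Ror1* and -0.11 for *Lrp6*, where *Ror1* had opposite signs on the 2 arrays (-0.44 and 0.08). Of 10 tested cofactors of Frizzled proteins, 1 was lower. This was *Ndp*, which encodes the FZD4 ligand Norrin, at -1.96 and -1.43 (adjusted p = 0.00555, limma). *Tspan12* and *Lrp5*, partners of FZD4 that were chosen for this role after their values were seen, had means of -0.11 and 0.00. The glypican genes *Gpc4* and *Gpc3* were at -0.58 and -0.23, and *Shisa3*, whose relatives retain Frizzled proteins inside the cell, was at 0.21, all without passing the test. *Shisa3* had opposite signs on the 2 arrays (0.61 and -0.19), as had *Tspan12* (-0.32 and 0.09) and *Lrp5* (0.13 and -0.12).

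RNF43 and ZNRF3 remove Frizzled proteins from the membrane, and R-spondins with LGR receptors hold them back. Of 8 tested genes of this list, 1 was higher. *Rspo2* had log2 ratios of 1.03 and 1.19 (adjusted p = 0.00753, limma). *Znrf3* (mean -0.25) and *Rnf43* (mean 0.00), both named for their role after their values were seen, did not pass the test, nor did *Lgr5* at -0.41, *Rspo1* at -0.37 and *Rspo3* at 0.37. The 2 arrays gave opposite values for *Rspo1* (0.45 and -1.18).

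The secreted Frizzled-related proteins carry a cysteine-rich domain like that of the receptors and bind WNT proteins outside the cell. Of 6 tested genes of this list, *Sfrp2* was lower at -0.87 and -0.75 (adjusted p = 0.0183, limma). The list also holds *Corin*, which encodes a membrane protease with similar domains and not a secreted Frizzled-related protein. *Corin*, *Frzb* and *Sfrp1* had means of 0.46, 0.31 and -0.08 and did not pass, and *Sfrp1* had opposite signs on the 2 arrays (-0.25 and 0.09). None of the 8 transducers passed, with the largest means at -0.16 for *Dvl3* and *Axin1* and -0.11 for *Dvl2*. None of the 9 tested planar polarity genes passed either, and *Prickle4*, *Celsr3* and *Ankrd6* were at -0.29, 0.28 and -0.26.

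The feedback targets of WNT signalling had the most changes, with 7 of 10 lower and a median of -0.89. *Nkd1* and *Apcdd1*, which encode intracellular and membrane inhibitors of the pathway, fell by 1.31 and 1.27 on the log2 scale. The transcription factor genes *Sp5*, *Tcf7* and *Lef1* fell by 1.12, 0.89 and 0.89, the secreted inhibitor gene *Wif1* by 0.84 and *Tnfrsf19* by 0.73. *Axin2* was at -1.38 and -0.64 and missed the threshold (adjusted p = 0.0507), and *Dkk1* and *Notum* had means of -0.33 and -0.10. *Fzd10* had a lower mean than all tested genes of the 8 lists.

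**Figure D3:**
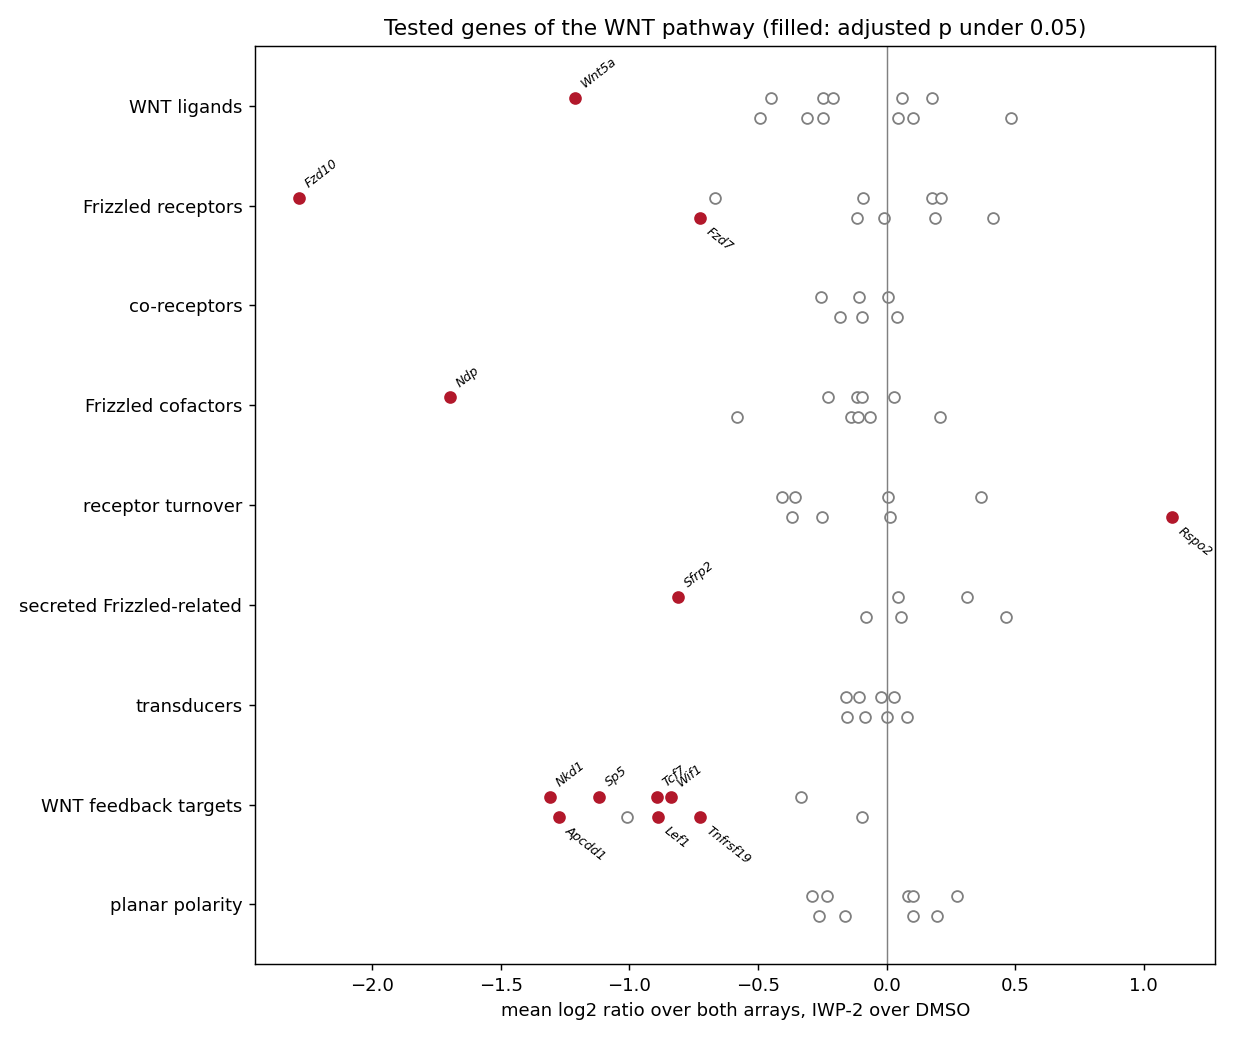
Mean log2 ratio over both arrays of the tested genes of 8 pathway lists and of the Frizzled family, 1 point per gene, filled where the adjusted p was under 0.05. *Fzd10* at -2.29 lies furthest to the left, and the feedback targets form the list with most filled points (7 of 10).

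The decrease of *Fzd10* and *Fzd7* was seen in explants in which some mesenchymal markers also moved. Of 10 markers of ureteric mesenchyme, all tested, 5 were lower at FDR 0.05 (*Foxf1*, *Tbx18*, *Ptch1*, *Tcf21* and *Bmp4*). The others did not pass, with *Col1a1* and *Col3a1* at -0.07, *Pdgfra* at -0.19, *Twist1* at 0.45 and *Pdgfrb* at 0.50. The paper proposes *Foxf1*, *Ptch1* and *Bmp4* as direct targets of WNT signalling, so their levels do not measure the share of mesenchymal cells. The summed normalised intensity of the 10 markers was 375163 and 394009 in the treated pools. It was 476153 and 462271 in the control pools, which gives log2 ratios of -0.34 and -0.23. This sum includes *Foxf1*, *Ptch1* and *Bmp4*, so it does not measure the share of mesenchymal cells either. None of the 10 markers of ureteric epithelium passed the test, and their median was 0.10. All 8 macrophage markers, 9 of 10 neural markers and 5 of 6 blood markers were higher on both arrays. Of 8 markers of kidney mesenchyme, 1 passed the test (*Meox1*, higher). In this list 2 were higher on both arrays and 2 lower, *Osr1* and *Gdnf* with means of -0.56 and -0.39, and the median was 0.00. *Six2* (1.03 and -0.38) and *Sall1* (0.29 and -1.81) were among those with opposite signs on the 2 arrays. The part of the cell composition in the values of the Frizzled genes was not tested.

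**Figure D4:**
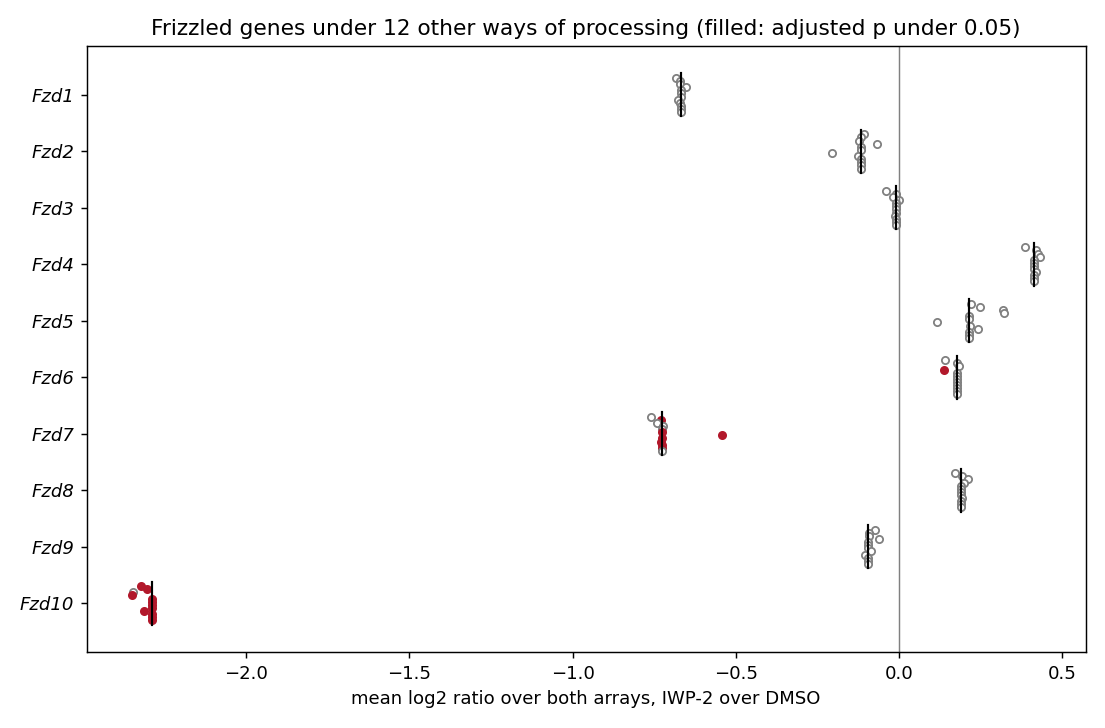
Mean log2 ratio of each Frizzled gene as reported (bar) and under 12 other ways of processing (points), filled where the adjusted p was under 0.05. The points of *Fzd10* lie between -2.35 and -2.29 and 11 of 12 are filled, whereas *Fzd7* has 7 of 12 filled.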

How the data were processed

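Spot and local background intensity in both dyes were read from the deposited scanner files, which per the file headers were written by Feature Extraction 12.2.0.7 (the labels name 10.7.3.1). A second deposited intensity had been background-corrected and dye-normalised by that software. Outlier spots and spots well above background are marked in other deposited columns. The deposited series table holds a score per probe, namely the fold change with a sign for its direction, rounded to 1 decimal. Its log2 values correlated with those of the processed intensities with r = 0.927 and 0.968 across probes, and its column medians were 1 and 1.

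R 4.3.3, limma 3.58.1 and the package data.table (version 1.17.8) were used. Spot intensities were corrected by normexp (offset 50) and log2 ratios normalised by loess within each array. Channel values were obtained after quantile normalisation of the mean brightness between arrays. Outlier spots were dropped (4 and 1 of the Frizzled spots on the 2 arrays), and the rest averaged per probe. A probe was kept if over 0.5 of its spots were well above background in 1 group on both arrays, and the brightest kept probe stood for its gene. lmFit and eBayes were fitted to all 20119 genes after the ratios of the swapped array had been turned, with Benjamini-Hochberg adjustment over all of them. Each gene had 1 residual degree of freedom, and the precision is limited by the number of arrays. The code of the fit was run on simulated normal data with known changes, to check the sign and size of its estimates. That run is no check of the calls made from these 2 arrays. The paper describes 2 untreated and 2 treated pools of ureters for this stage. The spread between the pools of different arrays may still be technical, since separate dissections are not stated in the sources used here.

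Members, gene lists and alternatives were chosen with earlier results of these data known. Named genes were all members, the list genes past FDR 0.05, up to 3 further genes per list with the largest mean change, and the 3 genes nearest to *Fzd10*. Genes named beyond this rule are markers of cell types or are said to be so.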

Additional observations from a re-analysis of the deposited data

How the results depend on the processing

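All 10 Frizzled genes kept the sign of their mean under the 12 other ways of processing, except that *Fzd3* was at 0 in the deposited series table. The number of Frizzled genes past FDR 0.05 was 2 in 8 of the 12. It was 1 (*Fzd10*) with median centring, without a filter on dim probes and in a separate-channel model without a dye term, which, like a trend in the prior alone, was chosen after seeing the data. It was 0 with the processed intensities, where 0 of all 20119 genes passed in limma, the only tool run, while 5 Frizzled genes had an unadjusted p under 0.05, as did 2464 of all genes. The cause was not tested. With the reported processing, 1 gene (*Fzd10*) passed a stricter FDR of 0.01. In the deposited series table the 2 genes were *Fzd6* and *Fzd10*, since *Fzd6* has the same rounded value on both arrays there. *Fzd7* did not pass in that setting (adjusted p = 0.0929, limma), so only the count matched the reported one. With these rounded values, 1322 of all 20119 genes were lower and 1038 higher at FDR 0.05. The reported processing gave 232 lower and 122 higher. The 2 calls there thus stand against a much larger share of calls over all genes. The adjusted p of *Fzd7* ranged from 0.00656 to 0.396 and that of *Fzd10* from 6.09e-05 to 0.396. With all probes averaged, *Fzd7* was at -0.54 (adjusted p = 0.0377). Without replicate 1 or replicate 2, 4 to 6 genes were lower on the remaining array, and with median centring or in the series table just 3 genes were lower on both, without *Fzd2*. At a fold change of 1.5, 2 genes passed the filter (*Fzd7* and *Fzd10*). The planned dye term in a separate-channel fit could not be fitted, and a slide block could not be formed with both arrays on 1 slide. The reported test is paired, since it uses the ratio of the treated to the control pool within each array. With 2 arrays, no gene can be checked for outliers.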

Other observations

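Promoters of 6 of the 10 Frizzled genes (*Fzd1*, *Fzd4*, *Fzd5*, *Fzd7*, *Fzd9* and *Fzd10*) were found in the RefSeq table of build GRCm38.p6, from 250 bases before to 50 after the start of transcription. They were searched on both strands for CTTTGAA and CTTTGAT, letters bound by TCF and LEF factors. None of the 6 windows held either one, and 8.65% of 32851 promoter windows did. At that share, no match in 6 windows is not unusual. The search covered 300 bases per gene and exact letters, so sites elsewhere would be missed. From public binding data of various mouse tissues, the paper reports shared peaks of CTNNB1 and TCF/LEF factors at *Fzd10*.

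The gene next to *Fzd10* in RefSeq is *Fzd10os*, a non-coding transcript listed on the array as 5930412G12Rik. It was chosen after its values were seen. Its probe was well above background on 0.25 to 0.5 of the spots in the 4 channels, too few for the test, and no fold change is given.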
